A study of Ovis aries with 15 samples.

Results

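The genes described here encode the route that takes a milk protein from the ribosome into the endoplasmic reticulum (ER) and on to the Golgi: signal recognition and its receptor, the translocon, signal peptidase, the COPII and COPI coats, their GTPases, cargo receptors and tethers. They were taken by symbol from a list of 59 genes, of which 52 were matched among the 24691 features of the deposited table. SSR1, SPCS1, COPG1, TMED7, KDELR1, KDELR3 and SEC22B were not matched and are not analysed here. All 52 passed the filter on low counts, with at least 16 exon reads in every library, and 13345 genes in all were tested. Needle biopsies of the mammary gland came from 2-year-old Romney ewes in their first lactation cycle, at day 135 of gestation (late pregnancy, 9 libraries) and day 15 post partum (lactation, 6 libraries). The ewes shared the same pasture feeding, while their own dams had been fed ad libitum (HM), at maintenance (MM) or at sub-maintenance (LM) in early gestation and at maintenance afterwards. By the methods, ewes were sampled in late pregnancy and again in lactation, so the states share animals. Each dam group gave 3 late pregnancy and 2 lactation libraries. Every library was made from RNA pooled over several ewes of a group. The methods give 3 ewes a pool, the labels 2 for a lactation pool, so the spread between libraries is that between pools and not between single animals.

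A nascent secretory protein carries a signal peptide, which the signal recognition particle (SRP) binds as it leaves the ribosome. SRP docks on its receptor at the ER, the chain is threaded through the Sec61 translocon, and signal peptidase cuts the signal peptide off. Folded cargo leaves the ER in vesicles coated with COPII, whose assembly is started by the GTPase SAR1, and COPI vesicles, started by ARF GTPases, return escaped residents and receptors from the Golgi to the ER. In the lactating gland the caseins and whey proteins are the main cargo of this route.

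The 7 main milk protein genes held 71.3 to 75.8% of a lactation library and 13.7 to 23.4% of one from late pregnancy. A level is therefore given here as RPKM, reads per kilobase of exon and library size, after TMM scaling, which sets libraries on a common scale by the bulk of the genes. The reads used numbered 6471237 to 16898986 per late pregnancy library and 9014506 to 24001031 per lactation library. Of all tested genes, 33.1% were called higher in lactation. Of the luminal epithelial markers, 5 rose and 2 fell among 9 tested. Their summed level was 1174 to 1458 in late pregnancy and 1821 to 2018 in lactation. Sums, here and below, are over all listed markers found in the table, untested ones included. Of the myoepithelial markers 4 rose and 2 fell among 7, with sums of 349.6 to 403 and 349 to 533. Of the tested markers of other cells, with 35.2% of all tested genes called lower, those that fell were 4 of 5 for fibroblasts (135 to 225 against 97.8 to 157), 3 of 4 for endothelium (38.0 to 49.1 against 24.6 to 32.1), 4 of 5 for macrophages (99.98 to 139.6 against 45.2 to 68.9) and 5 of 5 for T cells (26.8 to 43.1 against 8.87 to 13.8). Neither of the 2 adipocyte markers tested was called, and the 4 found summed to 2.30 to 10.9 and 2.40 to 6.64, while the macrophage marker MARCO had at most 3 reads in every library. Of 6 tested markers of B and plasma cells 2 rose and 2 fell, and the 10 found summed to 11.6 to 14.3 and 12.0 to 17.6. The part of these shifts in the changes below was not tested, and in a whole biopsy fewer cells of a type and less RNA per cell cannot be told apart. The lactation library of HM pool 1 stood apart, with 13.2% of its gene reads outside exons against 5.85 to 6.68% in the other lactation libraries and 14.4 to 16.1% in late pregnancy, so counts are also given without it.

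Most of the route was higher in lactation relative to other genes. Of the 52 genes, 45 rose, 4 fell (SEC11A, SEC23A, COPG2 and COPZ2) and 3 did not pass the test (SSR2, SEC24B and COPE), by edgeR's quasi-likelihood test with Benjamini-Hochberg adjustment over all tested genes at an adjusted p under 0.05. Among all tested genes 33.1% were called higher and 35.2% lower. The median log2 change of the 52 genes was 0.71 against -0.03 over all tested genes, and 41 of the 52 lay above the upper quartile of all genes, 0.40. The rises were moderate: 11 genes rose by more than 2-fold, against 9.13% of all genes, and the largest was 3.51-fold, in SAR1B. In 42 genes every lactation library lay above every late pregnancy library, as did 20.2% of all tested genes. SEC11A and COPG2 lay below in every lactation library, which 20.0% of all tested genes did. Without the lactation library of HM pool 1 the test called 45 higher and 3 lower, and 45 genes in place of 44 had no overlap between the states. Within the libraries that carry lane 7 in their column names the test called 43 higher and 2 lower. Within those of lane 8 it called 45 higher and 3 lower. The description of the series puts every library on 2 lanes, so lane 7 and lane 8 here and below name a column label only.

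The direction is relative to the rest of the transcripts and not to all reads. Scaled by all reads of a library, milk proteins included, 51 of the 52 genes were called lower in lactation and none higher, with SAR1B alone not past the threshold. On that scale the median log2 change was -1.19 for the 52 genes and -1.94 for all tested genes, and 47 of the 52 lay above the median of all genes on either scale.

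**Figure D1:**
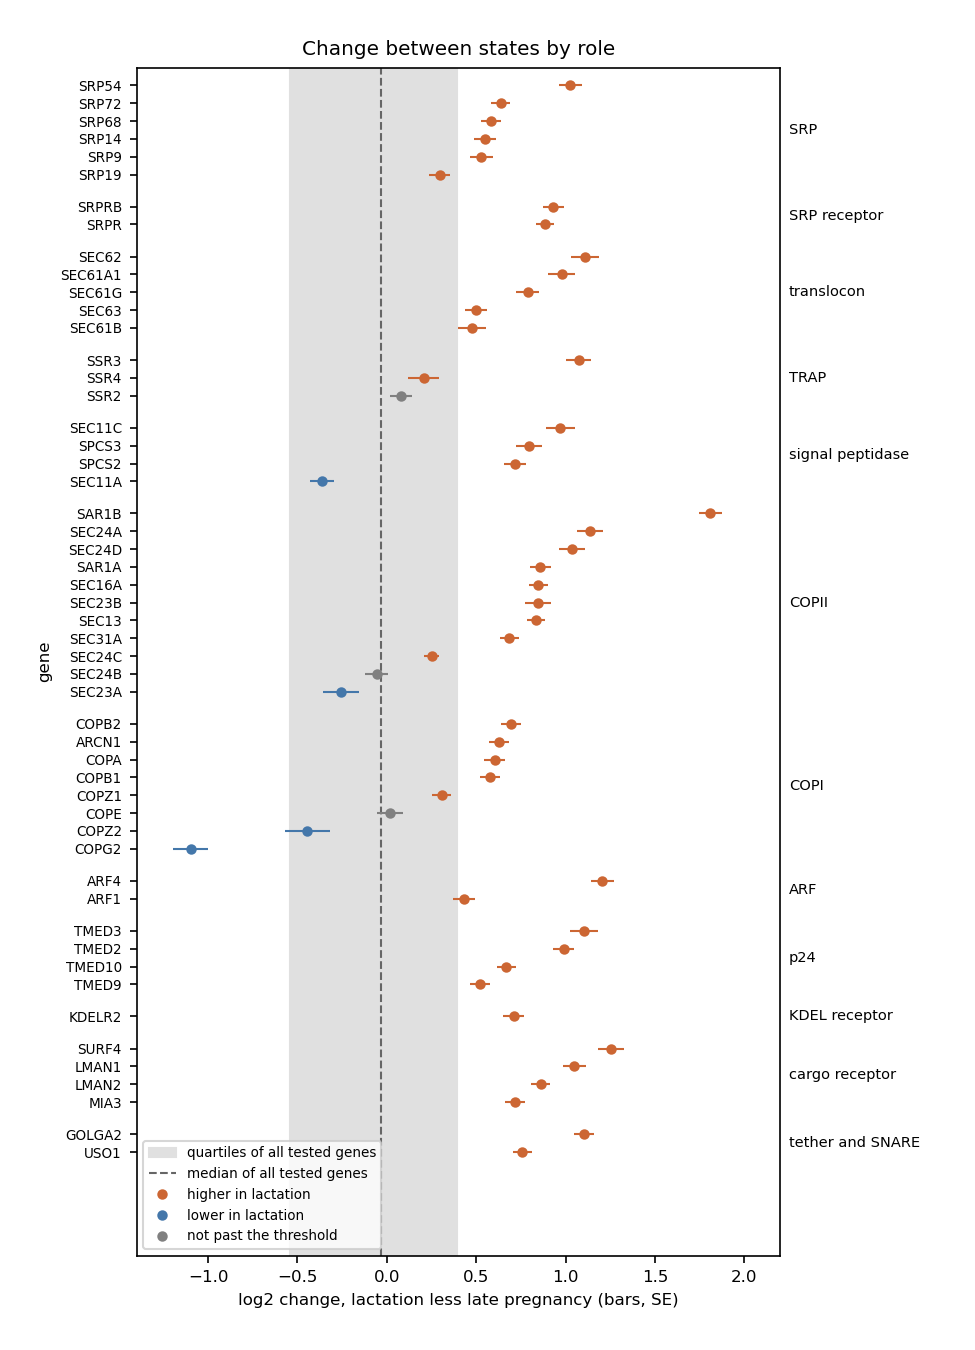
Log2 change from late pregnancy to lactation of each of the 52 genes (points, with SE), grouped by role, with the median (dashed line) and quartiles (grey band) of all tested genes. The points of 41 genes lie to the right of the band, SAR1B farthest at 1.81, and COPG2 lies to its left at -1.10.

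All 6 protein genes of SRP that were tested rose, by log2 changes of 0.30 to 1.03 with a median of 0.57. SRP54, the GTPase subunit that binds the signal peptide, rose most. SRP54 had levels of 15.9 to 20.1 before lambing, with a median of 18.8, and of 33.7 to 41.5 in lactation, with a median of 37.4, a 2.04-fold rise without overlap (log2 change 1.03 ± 0.06, adjusted p = 2.1e-11). SRP72 (0.64 ± 0.05) and SRP68 (0.58 ± 0.06), which bind each other on the RNA of the particle, and SRP14 (0.55 ± 0.06) and SRP9 (0.53 ± 0.06), the pair that slows elongation, rose by log2 values between 0.53 and 0.64. SRP19, which helps SRP54 to assemble, rose least (log2 change 0.30 ± 0.06, adjusted p = 0.000194), and its lowest lactation library, 39.6, lay below its highest in late pregnancy, 40.7. The call of SRP19 was lost with library sizes that leave out milk protein reads (0.085, adjusted p = 0.207), by limma on quantile-normalized RPKM (0.040, adjusted p = 0.477) and within lane 7 (0.15, adjusted p = 0.146).

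Both subunits of the SRP receptor rose by nearly the same amount. The level of SRPRB was 23.3 to 28.2 (median 24.8) in the late pregnancy libraries and 40.3 to 52.5 (median 49.9) in the lactation libraries (log2 change 0.93 ± 0.06, adjusted p = 3.44e-11), and SRPRB is the membrane-bound GTPase that anchors the receptor. SRPR, the subunit that meets SRP54, stood at 52.4 ± 2.52 (SD) in late pregnancy and 96.8 ± 6.26 in lactation (log2 change 0.89 ± 0.05, adjusted p = 4.98e-12). Neither gene overlapped between the states. SRPR overlaps FAM118B by 55 bases, and that neighbour fell (-0.89 ± 0.11, adjusted p = 5.95e-07).

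All 5 translocon genes rose, and their summed level was 349 to 415 in late pregnancy and 563 to 717 in lactation. SEC62, which with SEC63 helps chains enter the channel after synthesis, rose most of them. SEC62 ran from 55.0 to 75.2 before lambing (median 65.2) and from 118 to 160.0 in lactation (median 144), so no library overlapped (log2 change 1.11 ± 0.08, adjusted p = 1.11e-10). The pore subunit SEC61A1 was also higher in every lactation library, 64.4 ± 6.58 against 127 ± 12.9 (log2 change 0.98 ± 0.07, adjusted p = 3.98e-10). The small subunits SEC61G (0.79 ± 0.06) and SEC61B (0.48 ± 0.08) rose less, and SEC63 rose by 0.50 ± 0.06. SEC61B overlapped between the states only through the lactation library of HM pool 1, at 126, while the other lactation libraries started at 152 and the highest in late pregnancy was 136.

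The translocon-associated protein (TRAP) genes, whose complex assists some signal peptides at the channel, did not move together. Levels of SSR3 lay between 56.9 and 74.2 (median 68.2) in late pregnancy and between 126 and 166 (median 139) in lactation, a 2.10-fold rise without overlap (log2 change 1.07 ± 0.07, adjusted p = 2.68e-11). SSR4 had the highest level of all 52 genes in both states, 359 ± 35.5 and 414 ± 68.0, and its rise was small and unsteady (log2 change 0.21 ± 0.09, adjusted p = 0.0419): it was lost when any of 8 single libraries was left out and under 4 of the other settings tried, and its sign turned under 2 more. SSR2 stood at 143 ± 12.0 and 151 ± 9.74 with wide overlap (log2 change 0.08 ± 0.06, adjusted p = 0.243).

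In signal peptidase the catalytic subunits moved in opposite directions. SEC11C rose and SEC11A fell, while the accessory subunits SPCS2 (0.72 ± 0.06) and SPCS3 (0.80 ± 0.07) rose. The level of SEC11C was 44.5 to 60.9 (median 54.1) in the late pregnancy libraries and 92.8 to 125 (median 98.7) in the lactation libraries, without overlap (log2 change 0.97 ± 0.08, adjusted p = 1.64e-09). Levels of SEC11A lay between 31.4 and 37.2 (median 32.7) in late pregnancy and between 20.5 and 28.4 (median 27.2) in lactation, again without overlap, with every lactation library below (log2 change -0.36 ± 0.07, adjusted p = 7.01e-05). The share of SEC11C in the summed RPKM of the pair was 60.8% ± 3.21 in late pregnancy and 79.7% ± 2.74 in lactation. In the annotation of the deposited table SEC11A lies at chromosome 18, 21429295 to 21461888, and SEC11C at chromosome 23, 58365056 to 58382733.

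**Figure D2:**
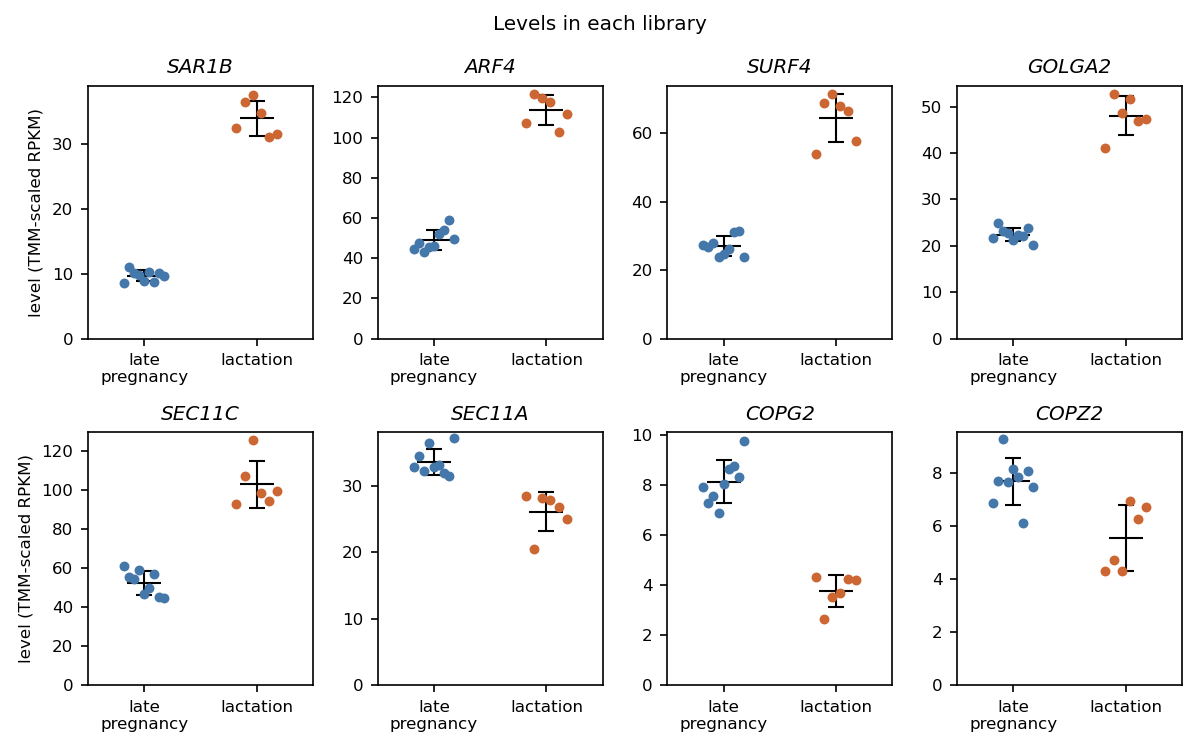
Levels (TMM-scaled RPKM, from 0) of 8 genes in each of the 9 late pregnancy and 6 lactation libraries, with the mean and SD in black. SAR1B, ARF4, SURF4, GOLGA2 and SEC11C were higher in all lactation libraries, SEC11A and COPG2 were lower in all of them, and COPZ2 overlapped between the states.

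Among the COPII genes 9 of 11 rose, with a median log2 change of 0.85, and their summed level was 164 to 195 in late pregnancy and 305 to 343 in lactation. SAR1B, a paralog of the GTPase that starts the coat, had the largest rise of all 52 genes. SAR1B had levels of 8.64 to 11.1 before lambing, with a median of 9.78, and of 31.1 to 37.5 in lactation, with a median of 33.6 (log2 change 1.81 ± 0.07, adjusted p = 5.53e-15). The lowest lactation library thus stood well above the highest in late pregnancy. SAR1A ran from 28.4 to 35.9 before lambing (median 31.1) and from 53.8 to 62.1 in lactation (median 58.7), also without overlap (log2 change 0.86 ± 0.06, adjusted p = 5.48e-11). SAR1A was the more abundant of the pair per length. The share of SAR1B in their summed RPKM was 23.2% ± 1.85 in late pregnancy and 36.8% ± 2.33 in lactation. SAR1B (chromosome 5, 43499516 to 43524465) and SEC24A (chromosome 5, 43523788 to 43600544) overlap by 678 bases, and reads in that stretch cannot be told apart.

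Inner coat genes split by paralog. The inner coat is a dimer of SEC23, which activates the GTPase of SAR1, and SEC24, which binds cargo. The level of SEC23B was 25.4 to 36.6 (median 30.5) in the late pregnancy libraries and 51.0 to 61.0 (median 53.7) in the lactation libraries, without overlap (log2 change 0.85 ± 0.07, adjusted p = 2.42e-09). Levels of SEC23A lay between 4.60 and 6.15 (median 5.03) in late pregnancy and between 3.50 and 5.61 (median 4.31) in lactation (log2 change -0.26 ± 0.10, adjusted p = 0.0266). These ranges of SEC23A overlapped, and the call of SEC23A was lost without any of 3 lactation libraries, that of HM pool 1 among them (without it -0.21, adjusted p = 0.0697). SEC23B made up 85.1% ± 2.66 in late pregnancy and 92.6% ± 0.855 in lactation of the summed RPKM of the pair.

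Of the SEC24 genes, SEC24A (log2 change 1.14 ± 0.07, adjusted p = 3.23e-11) and SEC24D (log2 change 1.04 ± 0.07, adjusted p = 8.25e-11) rose by more than 2-fold. SEC24A ran from 3.96 to 5.35 before lambing (median 4.58) and from 8.60 to 11.6 in lactation (median 9.96). The level of SEC24D was 17.5 to 23.1 (median 20.1) in the late pregnancy libraries and 36.0 to 47.7 (median 40.0) in the lactation libraries. Neither overlapped between the states. SEC24C rose little, from 21.3 to 23.7 (median 22.8) up to 25.9 to 27.6 (median 27.3), with the smallest spread of the 52 genes in lactation (CV 2.57%, log2 change 0.25 ± 0.04, adjusted p = 2.39e-05). The call of SEC24C was lost with library sizes that leave out milk protein reads (0.043, adjusted p = 0.372) and by limma on quantile-normalized RPKM (0.059, adjusted p = 0.122). SEC24B had levels of 7.49 to 9.32 before lambing (median 8.60) and 7.01 to 8.84 after it (median 8.33), and did not pass the test (log2 change -0.06 ± 0.06, adjusted p = 0.451). As a share of the 4 genes, SEC24D was 35.9% ± 1.94 in late pregnancy and 47.5% ± 2.33 in lactation, and SEC24C was 40.8% ± 1.27 in late pregnancy and 31.5% ± 1.87 in lactation, so that SEC24C was the most abundant in late pregnancy and SEC24D in lactation. SEC24A made up 8.16% ± 0.608 in late pregnancy and 11.6% ± 0.566 in lactation, and SEC24B 15.1% ± 1.46 in late pregnancy and 9.41% ± 1.07 in lactation.

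The outer coat genes SEC13 (0.84 ± 0.05) and SEC31A (0.69 ± 0.05) and the scaffold gene SEC16A (0.85 ± 0.05), which marks the exit sites of the ER, rose without overlap. SEC16A was among the COPII genes of lowest level, 4.95 ± 0.198 in late pregnancy and 8.91 ± 0.855 in lactation.

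The median log2 change of the COPI genes was 0.44, against 0.85 in COPII, and the difference between the groups was not tested. Of 8 genes, 5 rose, 2 fell and 1 did not pass the test. COPB2 (0.69 ± 0.05), ARCN1 (0.63 ± 0.06), COPA (0.60 ± 0.06) and COPB1 (0.58 ± 0.06), all subunits of the coatomer, changed by log2 values between 0.58 and 0.69. COPB2 had levels of 32.4 to 37.4 before lambing, with a median of 36.3, and of 53.6 to 65.4 in lactation, with a median of 55.1, without overlap (log2 change 0.69 ± 0.05, adjusted p = 7.28e-10). COPE, the epsilon subunit, stood at 78.6 ± 8.76 and 79.4 ± 6.51 and did not pass the test (log2 change 0.02 ± 0.07, adjusted p = 0.837).

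The 2 falls in COPI concerned paralogous subunits. COPG2, a gamma subunit, fell to 0.467 of its level and was the only gene of the 52 that fell by more than 2-fold (log2 change -1.10 ± 0.10, adjusted p = 5.71e-09). Levels of COPG2 lay between 6.89 and 9.73 (median 8.01) in late pregnancy and between 2.64 and 4.33 (median 3.93) in lactation, without overlap. The gene lies at chromosome 4, 94290151 to 94429264 and overlaps MEST by 46 bases, a neighbour of low level that also fell (-0.47 ± 0.18, adjusted p = 0.0265). The level of COPZ2 was 6.11 to 9.27 (median 7.68) in the late pregnancy libraries and 4.28 to 6.96 (median 5.48) in the lactation libraries, with overlap (log2 change -0.44 ± 0.13, adjusted p = 0.00439). COPZ2 did not pass the test within the libraries of either lane label alone, where its log2 change was -0.44 (adjusted p = 0.0739) and -0.43 (adjusted p = 0.0513). COPZ1 ran from 61.4 to 73.5 before lambing (median 66.6) and from 77.6 to 89.6 in lactation (median 80.9), higher without overlap (log2 change 0.31 ± 0.05, adjusted p = 3.09e-05), but its call was lost with library sizes that leave out milk protein reads (0.098, adjusted p = 0.0754) and by limma on quantile-normalized RPKM (0.047, adjusted p = 0.261). Of the summed RPKM of the zeta pair, COPZ2 held 10.4% ± 1.11 in late pregnancy and 6.33% ± 1.46 in lactation.

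The 2 ARF GTPases among the 52 genes both rose, ARF4 more than ARF1. The level of ARF4 was 43.3 to 58.8 (median 47.3) in the late pregnancy libraries and 103 to 122 (median 115) in the lactation libraries, a 2.31-fold rise (log2 change 1.21 ± 0.07, adjusted p = 3.62e-12). Levels of ARF1 lay between 72.7 and 90.7 (median 76.9) in late pregnancy and between 91.0 and 117 (median 108) in lactation (log2 change 0.43 ± 0.06, adjusted p = 2.89e-06). The lactation library of HM pool 1, at 91.0, was just above the highest in late pregnancy, 90.7. ARF4 was the less abundant of the pair in late pregnancy and the more abundant in lactation. Its share of the pair was 38.5% ± 2.05 in late pregnancy and 51.9% ± 1.24 in lactation. The paralogs ARF3 and ARF5 are not among the 52 genes and are left out of this share. In late pregnancy and lactation ARF3 stood at 45.6 ± 3.75 and 55.9 ± 2.86, and ARF5 at 11.5 ± 1.37 and 5.79 ± 2.37. The gene models of ARF1 and ARF4 hold a coding length only, 546 bases for ARF1 and 543 for ARF4. Levels of ARF1 and ARF4 thus compare better with each other than with the rest.

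All 9 shares within the 6 sets of paralogs differed between the states without overlap of any library. Shares within other sets of genes were not computed, so how often they separate the states is not known. By level, 20.2% of all tested genes were higher and 20.0% lower in lactation without overlap. An exact two-sided permutation test on the 15 libraries gave p = 0.0004 for each share, the smallest it can give, and the same value after Benjamini-Hochberg adjustment over the 9. Shares within a set do not depend on the scaling of libraries. The ranges of the shares were 54.5 to 65.0% and 76.6 to 83.9% for SEC11C, 20.8 to 26.3% and 34.3 to 41.1% for SAR1B, 80.5 to 87.6% and 91.6 to 93.6% for SEC23B, 8.16 to 11.6% and 4.57 to 7.98% for COPZ2 and 35.7 to 41.5% and 50.6 to 54.1% for ARF4, in late pregnancy and lactation. The 4 shares of SEC24 genes sum to a fixed total and so are not separate results. Only 1 gene of the COPG set and 1 of the KDELR set was matched, so no share was computed for them. With read counts in place of RPKM, with uniquely placed reads and without any single library all 9 shares passed.

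**Figure D3:**
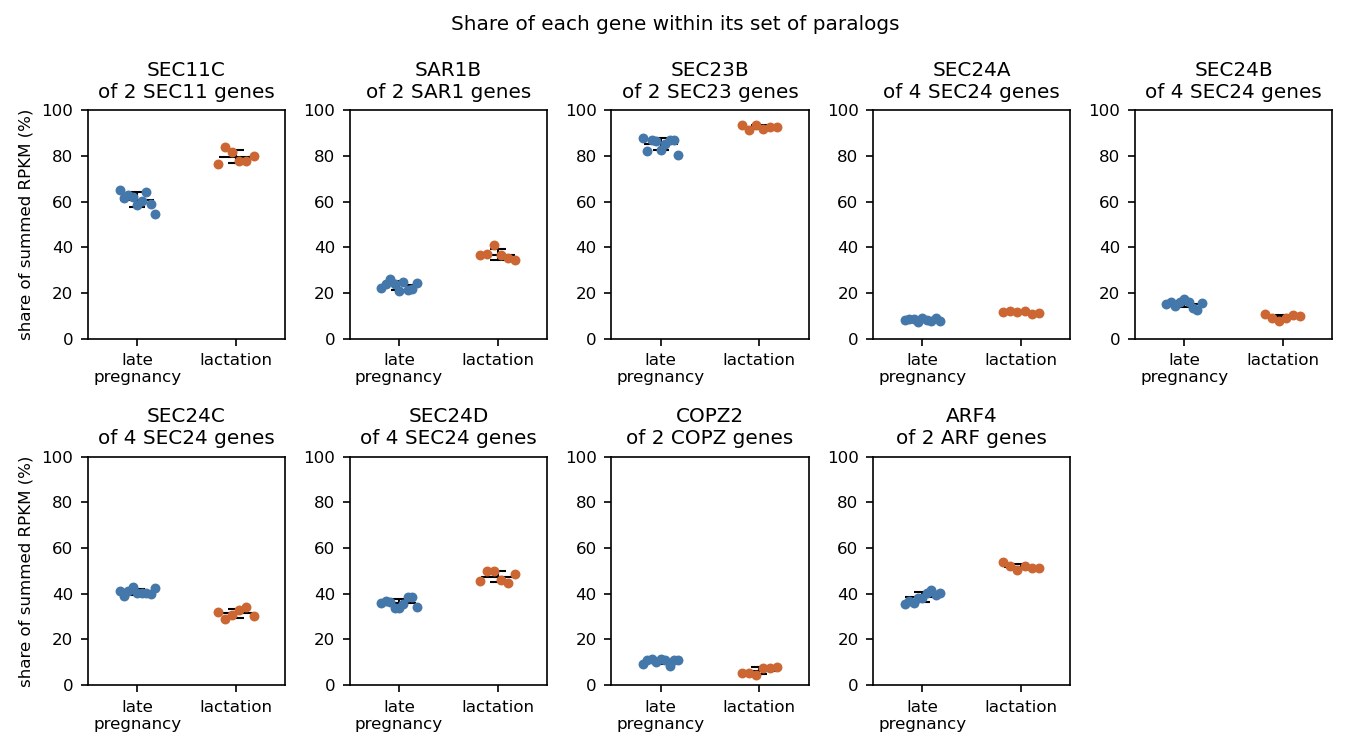
Share (%) of a gene in the summed RPKM of its set of paralogs, in each of the 9 late pregnancy and 6 lactation libraries, with the mean and SD. In every panel the states are apart: the shares of SEC11C, SAR1B, SEC23B, SEC24A, SEC24D and ARF4 were higher in lactation, and those of SEC24B, SEC24C and COPZ2 lower.

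The 4 p24 genes among the 52, for transmembrane proteins that travel with both coats and select cargo, rose without overlap. TMED3 ran from 27.0 to 35.8 before lambing (median 30.2) and from 51.7 to 79.5 in lactation (median 66.6), the largest rise among them (log2 change 1.10 ± 0.08, adjusted p = 1.38e-10). TMED2, the most abundant p24 gene, stood at 101 ± 7.18 and 201 ± 15.9 (log2 change 0.99 ± 0.06, adjusted p = 1.18e-11). TMED10 (0.67 ± 0.05) and TMED9 (0.52 ± 0.06) rose less. Among the other TMED genes tested, TMED8 (1.99 ± 0.25), TMED4 (0.64 ± 0.05) and TMED5 (0.24 ± 0.07) rose. TMED1 (-0.19 ± 0.09, adjusted p = 0.0553) and TMED6 (0.18 ± 0.16, adjusted p = 0.303) did not pass the test. The level of KDELR2 was 40.8 to 48.9 (median 45.2) in the late pregnancy libraries and 65.5 to 82.8 (median 73.6) in the lactation libraries (log2 change 0.71 ± 0.06, adjusted p = 1.58e-09), and this receptor returns ER residents that end in the KDEL signal.

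The 4 cargo receptor genes of this group, SURF4, LMAN1, LMAN2 and MIA3, all rose. Their summed level was 97.3 to 119 in late pregnancy and 196 to 228 in lactation. Among 16 other tested genes for cargo receptors and ER-Golgi intermediate compartment proteins, 11 rose, 1 fell and 4 did not pass the test. CNIH4 fell (-0.58 ± 0.10, adjusted p = 3.4e-05), and LMAN2L did not pass the test (0.08 ± 0.15, adjusted p = 0.626). SURF4 had levels of 23.7 to 31.3 before lambing, with a median of 26.7, and of 54.0 to 71.4 in lactation, with a median of 67.3, a 2.39-fold rise (log2 change 1.26 ± 0.07, adjusted p = 1.03e-11). SURF4 is a receptor for soluble secretory cargo. LMAN1 (log2 change 1.05 ± 0.06, adjusted p = 1.45e-11), a lectin that carries glycoproteins out of the ER, rose from 21.0 ± 1.29 to 43.6 ± 4.94. Its relative LMAN2 (0.86 ± 0.05) and MIA3 (0.72 ± 0.05), which loads bulky cargo at exit sites, rose less, and none of the 4 genes overlapped between the states. Of the tethers, the level of GOLGA2 was 20.2 to 24.8 (median 22.3) in the late pregnancy libraries and 41.1 to 52.8 (median 47.9) in the lactation libraries (log2 change 1.10 ± 0.06, adjusted p = 1.23e-12), and USO1 rose by 0.76 ± 0.05. GOLGA2 is the Golgi matrix protein that USO1 binds when a vesicle docks.

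**Figure D4:**
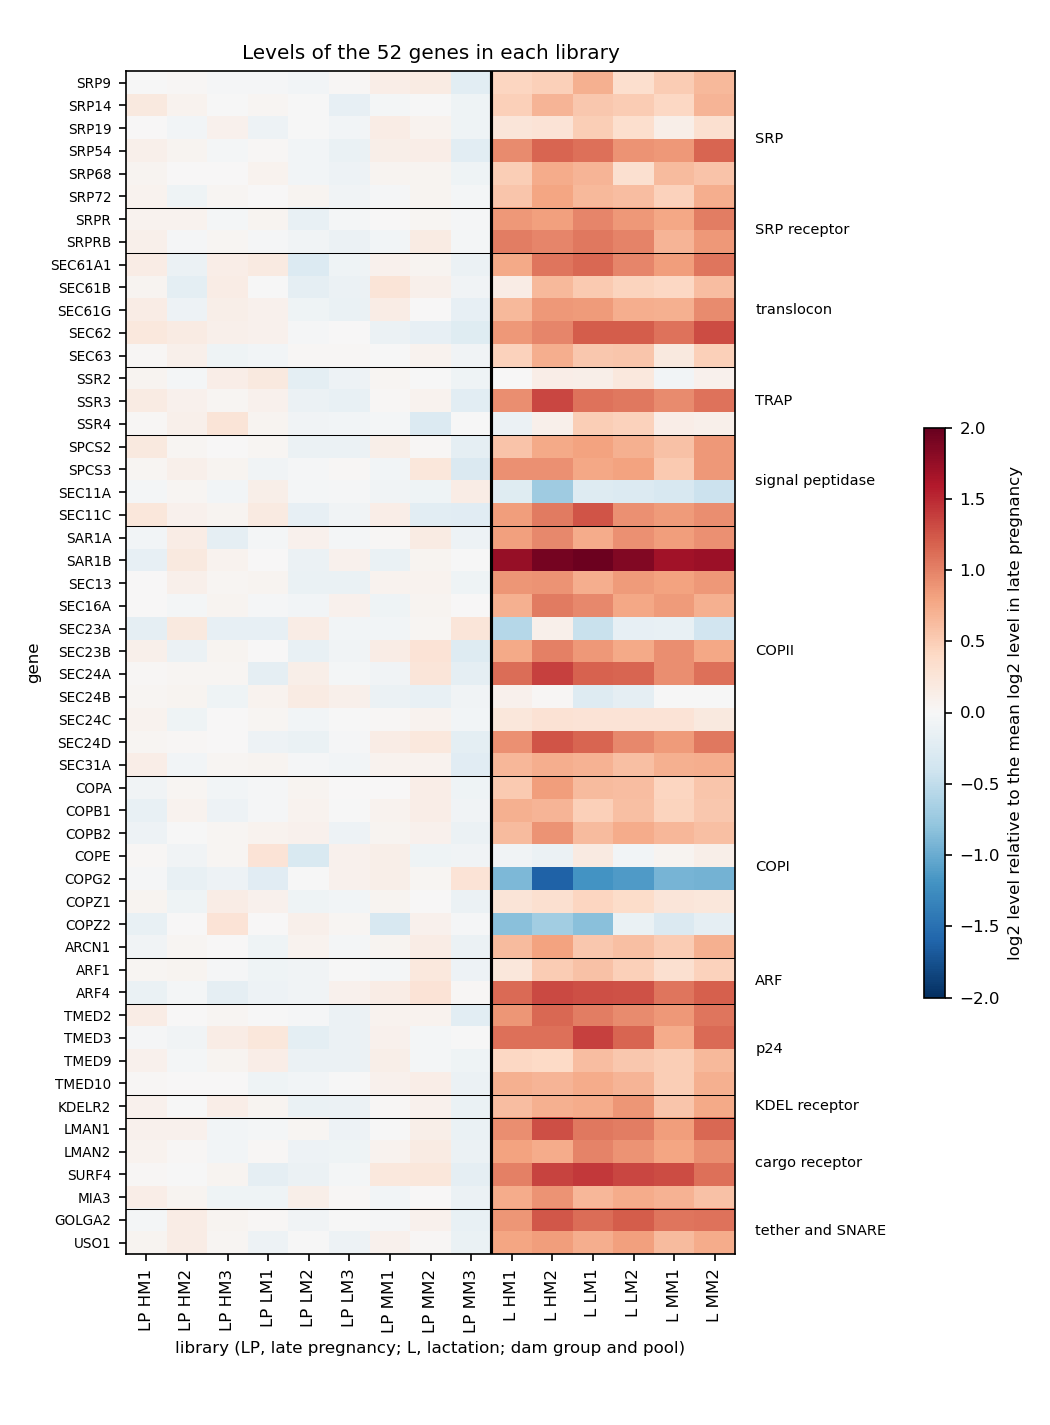
Log2 level of the 52 genes in each library relative to the mean log2 level in late pregnancy (red higher, blue lower), by role. The 6 lactation libraries on the right are red for most genes, deepest for SAR1B. They are blue for SEC11A, COPG2 and COPZ2, and for SEC23A in all but the library of HM pool 2. Rows of SSR2, SEC24B and COPE change little.

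Compared per length of exon, the mean level was highest for SSR4 in both states. After SSR4 came SSR2 (143 ± 12.0), SEC61B (114 ± 12.5) and SEC61G (103 ± 8.91) in late pregnancy, whose ranges overlap in part, and TMED2 (201 ± 15.9), SEC61G (178 ± 13.8) and SEC61B (158 ± 19.0) in lactation. SEC24A was lowest in late pregnancy, at 4.53 ± 0.440, and COPG2 in lactation, at 3.76 ± 0.638. Uniquely placed reads were fewest in 4 genes: they made up 64.2% of the exon reads of SEC61G, 71.0% of COPB2, 76.7% of ARF1 and 83.0% of SURF4, and at least 96.3%, the share of SRP9, in every other gene of the 52. On unique reads the log2 changes of these 4 genes were 0.83, 0.71, 0.43 and 1.26.

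Other genes of the same route come from a list of 86 of which 78 were tested. Of these 49 rose and 8 fell, with a median log2 change of 0.31, and 9 rose by more than 2-fold. Among all tested genes 33.1% were called higher, 35.2% lower and 9.13% higher by more than 2-fold, so the count over 2-fold was near that share. By group, 17 of 22 COPI regulators and tethers rose and 1 fell, 11 of 16 other cargo receptors and proteins of the ER-Golgi intermediate compartment rose and 1 fell, 11 of 20 COPII regulators rose and 4 fell, and 10 of 20 genes for membrane protein insertion and translocon partners rose and 2 fell. The largest rises were TMED8, a p24-related gene (0.871 ± 0.156 to 3.53 ± 2.03, log2 change 1.99 ± 0.25, adjusted p = 5.88e-07), MMGT1, an EMC subunit (1.35 ± 0.417 to 3.67 ± 1.30, log2 change 1.45 ± 0.22, adjusted p = 8.18e-06), and GBF1, the exchange factor that loads ARF1 at the Golgi (14.3 ± 1.23 to 38.0 ± 2.51, log2 change 1.41 ± 0.06, adjusted p = 7.38e-14). NBAS, of the tether that receives COPI vesicles at the ER (4.15 ± 0.345 to 10.4 ± 1.54, log2 change 1.34 ± 0.08, adjusted p = 9.14e-12), and BCAP31, an ER membrane chaperone (103 ± 8.79 to 241 ± 30.0, log2 change 1.23 ± 0.07, adjusted p = 9.61e-12), followed. TMED8 and MMGT1 had low counts, with a mean of 15.9 and 20.5 reads in the state with fewer.

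The largest falls were in ARF5, a class II ARF like ARF4 (11.5 ± 1.37 to 5.79 ± 2.37, log2 change -0.92 ± 0.17, adjusted p = 0.000109), and WRB, the receptor for tail-anchored proteins (13.0 ± 1.31 to 7.82 ± 0.992, log2 change -0.73 ± 0.09, adjusted p = 3.97e-07). CNIH4, a cargo receptor of COPII (16.9 ± 1.496 to 11.3 ± 1.80, log2 change -0.58 ± 0.10, adjusted p = 3.4e-05), TRAPPC5, a subunit of the TRAPP tether (21.6 ± 2.11 to 15.9 ± 2.06, log2 change -0.43 ± 0.09, adjusted p = 0.000295), and SEC61A2, the paralog of SEC61A1 (11.3 ± 0.870 to 9.07 ± 0.615, log2 change -0.32 ± 0.06, adjusted p = 0.000179), fell by less. ARF4 and ARF5 thus moved in opposite directions, as did SEC61A1 and SEC61A2. ARF5 had low counts, with a mean of 21.2 reads in the state with fewer.

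The table also holds reads placed within a gene but outside its annotated exons, a readout of the same genes that the exon counts do not contain. What RNA gave these reads was not tested, and strand was not kept. Of 51 genes with enough such reads (ARF1 had too few), 38 rose, 3 fell and 10 did not pass the test, with a median log2 change of 0.62. Among the 10344 genes tested on these reads, 29.0% were called higher and 29.0% lower. Without the lactation library of HM pool 1, 39 rose and 3 fell. Of the 44 genes that rose in exon reads and were tested here, 35 also rose in intron reads, 7 did not pass and 2 fell. KDELR2 (1.58 ± 0.11, adjusted p = 1.17e-11) and SEC13 (1.48 ± 0.08, adjusted p = 3.2e-13) rose most.

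In 4 genes the calls on exon and intron reads had opposite directions. The share of all tested genes with each pair of calls is not given, here or in the paragraph above. Whether these counts are unusual is therefore not known. SEC11C rose in exon reads and fell in intron reads (-0.47 ± 0.10, adjusted p = 0.000451), from 66.4 to 86.3 intron reads (CPM, TMM-scaled) in late pregnancy to 37.6 to 62.9 in lactation, without overlap. SSR4 did likewise on few reads (-0.80 ± 0.28, adjusted p = 0.0152), with means of 40.7 and 8.33 reads a library. Neither call of SSR4 was steady: the one on intron reads was lost without the lactation library of MM pool 1 (-0.71, adjusted p = 0.0524), and the one on exon reads without any of the 8 libraries counted above. COPG2 (0.84 ± 0.19, adjusted p = 0.000694) and COPZ2 (1.36 ± 0.17, adjusted p = 1.74e-07) fell in exon reads and rose in intron reads. For COPG2 the intron reads overlapped between the states, at 25.3 to 46.4 CPM in late pregnancy and 29.8 to 120.3 in lactation. Those of COPZ2 did not overlap in CPM, on means of 28.3 and 26.7 intron reads. SEC11A fell in both (-0.76 ± 0.16, adjusted p = 0.000219). The genes MEST, NCSTN, SURF2 and FAM118B overlap COPG2, COPA, SURF4 and SRPR, and reads there cannot be assigned by strand.

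The difference of the changes was tested in a fit over both kinds of count, chosen after the intron changes had been seen. It passed for 26 of the 51 genes, 13 with a higher and 13 with a lower log2 change in intron than in exon reads, against 33.4% of the 9801 genes tested. The largest differences, intron less exon, were 1.98 ± 0.19, adjusted p = 1.35e-10, for COPG2, 1.85 ± 0.21, adjusted p = 5.38e-09, for COPZ2, -1.39 ± 0.11, adjusted p = 3.82e-13, for SEC11C, and -0.98 ± 0.25, adjusted p = 0.00234, for SSR4. KDELR2 (0.90 ± 0.09, adjusted p = 9.02e-10) had the larger rise in intron reads, and SRPR (-0.78 ± 0.13, adjusted p = 1.45e-05) and SSR3 (-0.77 ± 0.09, adjusted p = 8.64e-09) had it in exon reads. Without the lactation library of HM pool 1 the difference passed for 23 of the 51 genes and for 3050 of all 9801. Those lost among the 51 genes were SEC63, SEC23A and COPA.

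**Figure D5:**
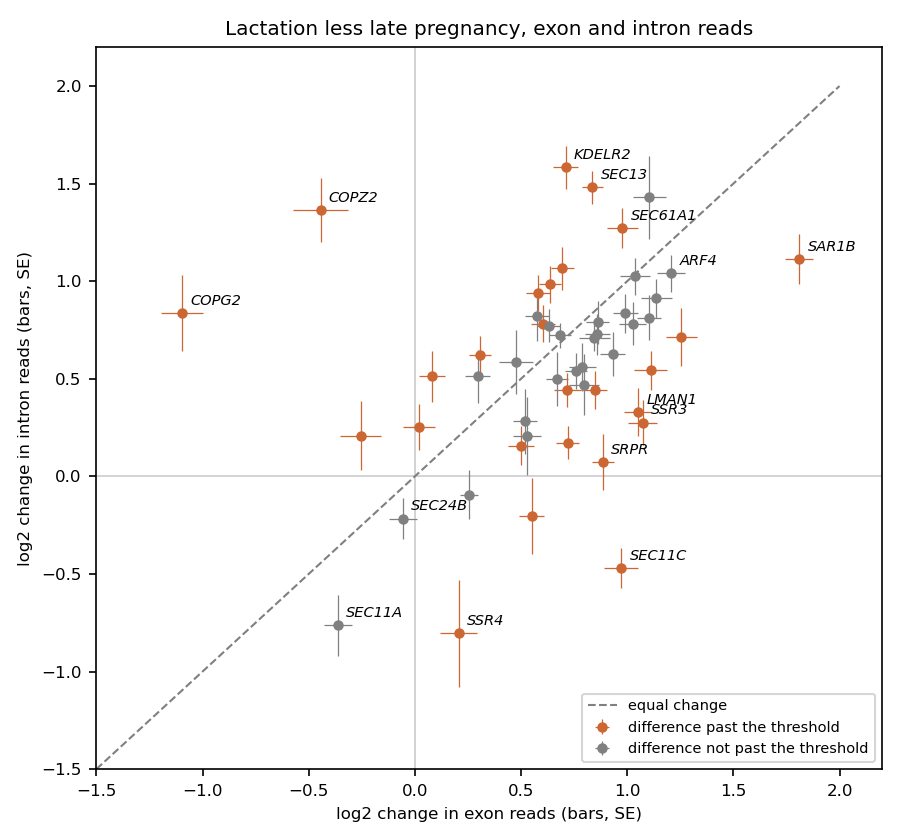
Log2 change in exon reads (horizontal) and in intron reads (vertical) of the 51 genes tested on both, with SE and the line of equal change. COPG2 and COPZ2 lie at upper left, SEC11C and SSR4 at lower right, and the 26 coloured genes differ between the readouts past the threshold.

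The feed of the ewes' own dams, the treatment named in the design of the series, left no call among these genes in late pregnancy. With 3 libraries a group, edgeR called 0 of the 52 and 0% of the 13747 genes tested. At an unadjusted p under 0.05 there were 3 of the 52 genes and 571 of all. DESeq2 called 0 of the 52 and 20 of all. Between sub-maintenance and ad libitum alone the log2 changes of the 52 genes lay between -0.15 (SSR3) and 0.11 (SEC24B). SEC62 had the lowest p, with levels of 75.2, 72.4 and 69.3 in the HM libraries, 69.0, 63.5 and 65.2 in LM and 59.8, 57.7 and 55.0 in MM (edgeR adjusted p = 0.778, DESeq2 adjusted p = 0.0613).

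Whether the change between states differed among dam groups gave 0 calls among the 52 genes and 0% of all 13345 by edgeR. At an unadjusted p under 0.05 there were 5 of the 52 and 876 of all. DESeq2 called 21 genes, and SEC62 was the only one of the 52 (adjusted p = 0.0130, against 0.657 by edgeR). Its lactation levels were 118 and 128 in HM, 138 and 160.0 in MM and 150.4 and 151 in LM, so that HM was highest in late pregnancy and lowest in lactation. The HM pair includes the library that stood apart. All LM libraries carry lane 8 in their column names, and both HM lactation libraries carry lane 7. In both dam comparisons dam group and lane label thus cannot be fully told apart.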

How the data were processed

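RNA of the pooled biopsies was sequenced as paired reads on an Illumina Hi-Seq after a library kit that does not keep strand. The authors mapped the reads and counted them per gene in CLC Genomics Workbench, on a sheep genome that the methods call version 3.2 and the labels Oar_v3.1, so positions are those of the deposited table. The deposited counts are reads on exons and on the whole gene, total and uniquely placed, and the authors did not normalize them. The deposited RPKM are exon reads per kilobase of exon, scaled to the reads on genes of the library, and the authors also quantile-normalized these RPKM for 1 more column per library. The authors' own fold changes and p-values were not used.

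Exon reads (whole-gene reads where a feature has no transcript) were tested with edgeR 4.0.16 in R 4.3.3: filterByExpr as filter, TMM as scaling and the quasi-likelihood F-test for lactation against late pregnancy without covariates, with Benjamini-Hochberg adjustment. Intron reads, the whole-gene less the exon reads, were tested in the same way. Levels are TMM-scaled CPM per kilobase of exon. Shares within paralogs were tested by an exact permutation test in scipy 1.17.1. Dam groups were compared over the late pregnancy libraries, and by an interaction over all libraries. The fits were tested on simulated counts. Alternatives were DESeq2 1.42.0, limma 3.58.1 on log2 of the quantile-normalized RPKM plus 1, other scalings and filters, and unique reads. Further alternatives were a replicate block, a split by the lane in the column name and leaving out each library. By the numbers of ewes and pools in the methods, the pools of a state hold different ewes, which the labels do not say. The p-values measure the spread between these libraries. The genes and lists were chosen with earlier results of these data known. Library values are given for the called gene with the largest rise and fall in each role and for paralogs, and of the other pathway genes the 5 with the largest change each way are named. Dam group and pool number were shared between states, but the deviations of same-numbered pools did not correlate (r from -0.0283 to 0.0922). The numbers were therefore not used to pair libraries. The main test thus treats the libraries of both states as independent, although the states share animals.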

Additional observations from a re-analysis of the deposited data

Results flagged for a closer look

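In 3 of 122 groups of values, the levels and shares of the genes within a state, a single library lay far from the others by Dixon's criterion, which chance alone flags in about 1 in 20 groups. SSR3 reached 166 in the lactation library of HM pool 2, while the next highest lactation library was at 140.2. ARF1 reached 90.7 in the late pregnancy library of MM pool 2, with the next at 81.2. TMED10 was at 98.1 in the lactation library of MM pool 1, below the next lowest at 111. None of the 3 values lay in the lactation library of HM pool 1, and the calls of these genes on exon reads held without each of the 3 libraries. On intron reads the call of SSR3 was lost without any of 10 single libraries, among them the lactation library of HM pool 2 (log2 change 0.15, adjusted p = 0.237) and the late pregnancy library of MM pool 2 (0.26, adjusted p = 0.0681).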

How the results depend on the processing

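Scaled by all reads, 0 of the 52 genes were higher and 51 lower in lactation, and 0 and 77 of the other pathway genes. With library sizes that leave out milk protein reads, 7 of the 52 and 16 of the other genes were lower, as were 14 of the others under upper quartile scaling and 15 by limma on quantile-normalized RPKM. The medians of all genes were then -0.24, -0.18 and -0.05. SSR2 was -0.13 without milk protein reads and -0.19 by limma, SSR4 -0.0024 and -0.039, and COPE -0.19 and -0.25, and these 3 genes thus turned sign, SSR2 and COPE being called lower under both. SEC24B was called lower without milk protein reads (-0.26) and under upper quartile scaling (-0.21), and limma did not call SEC61B (0.16, adjusted p = 0.0582). The split by lane label gave 2 lower genes of the 52 in lane 7 and 5 lower of the others in lane 8. DESeq2 called 1 interaction, SEC62, against 0. The cause of these shifts was not tested.

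Without any single library, 44 to 45 of the 52 genes were higher and 3 to 4 lower, 48 to 50 of the other pathway genes were higher and 7 to 11 lower, 36 to 40 were higher and 2 to 4 lower on intron reads, 9 shares passed, and 0 genes were called for dam group or interaction. With the replicate block, 45 of the 52 were higher and 4 lower, 36 and 3 on intron reads, 46 and 7 of the other genes, and 9 shares passed. Only 2 of 6 lactation libraries correlated best with their own number. Of 1404 changes of single genes over 27 settings, 1369 kept direction and call, 27 lost a call, 2 gained a call and 6 turned sign. These 27 settings leave out scaling by all reads, under which 51 of the 52 genes were called lower. Shares within lane 7 could not reach the threshold with 4 and 3 libraries. Few reads limit COPZ2 in lactation (a mean of 33.7 reads) and TMED8 in late pregnancy (15.9).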

Other observations

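Some of the genes lie close together. LMAN1 and SEC11C are 136119 bases apart on chromosome 23 with 3 features between them, and rose by log2 values of 1.05 and 0.97. SURF4 and SEC16A on chromosome 3 are 364877 bases apart with 10 features between, and rose by 1.26 and 0.85. TMED9 and LMAN2 on chromosome 5 are 266167 bases apart with 13 features between, and rose by 0.52 and 0.86. Whether neighbours change together more than other genes was not tested.

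The 52 genes varied little between pools. The median coefficient of variation of their levels was 7.11% in late pregnancy and 8.63% in lactation, against 12.3% and 15.8% over all tested genes, many of which have fewer reads. COPZ2 varied most in lactation, at 22.5%, with levels of 4.28 in the library of HM pool 1, the lowest, and 6.96 in the highest.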
